A study of Mus musculus with 4 samples.

Results

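Mature neutrophils of the marrow around the injured growth plate were taken as the barcodes of the 2 growth plate libraries that met a fixed rule on their own counts. A barcode needed at least 200 genes, at most 20% mitochondrial UMIs and a UMI of at least 3 of 6 genes (Cxcr2, Il1f9, Slc7a11, Asprv1, Fpr1 and Dhrs9). It also needed under 50 UMIs of the granule genes Ngp, Camp and Ltf per 10000, none of the B cell genes Ebf1 and Cd79a, and fewer than 3 of the interferon genes Ifit1, Ifit3, Rsad2, Ifi44 and Usp18. The rule found 1488 of 9380 filtered barcodes in the vehicle library and 1848 of 11634 in the 1NMPP1 library, 3336 of 26153 in the whole series. Single-cell RNA had been counted as UMIs (unique molecular identifiers) in mice of 1 genotype, shared by all groups: a receptor kinase that pain-sensing nerve cells use is altered so that 1NMPP1, a small kinase inhibitor, can block it. The growth plate, the cartilage at which a long bone lengthens, had been injured, and the end of the femur around it was digested with collagenase 7 days later. The treated mice were injected with 1NMPP1 at 17 µg/g body weight 48 h and 2 h before surgery and then drank it at 40 µM, and the controls received DMSO vehicle. Lumbar dorsal root ganglia (DRG) of vehicle and 1NMPP1 mice gave the other pair of libraries. Each of the 4 groups is 1 library, which leaves every difference below unreplicated, and the labels give no number, age, sex or strain of the animals. Intervals are exact, at 95%, and cover counting error only.

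Neutrophils mature in the marrow from granulocyte progenitors in a fixed order. Progenitors make the primary granule proteins, later stages the secondary granule proteins, then gelatinase granules, and mature cells carry the receptors with which they leave for the blood and sense bacteria, complement and chemokines. CXCR4 holds them in marrow, CXCR2 draws them out, and activated cells release IL-1β and chemokines.

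Values are given vehicle first here and below. The growth plate libraries had 9560 and 11807 barcodes, with 102693014 and 139703885 UMIs. Filtered barcodes had medians of 6859 and 7467.5 UMIs. The mature neutrophils had fewer, 3871 and 4257.5, in medians of 1334.5 and 1443.5 genes. They held 7827468 and 10087132 UMIs in all. The 2 libraries shared 40 cell barcodes by sequence, of which 1 was a mature neutrophil in both. Cells of both sexes were mixed in each library. Barcodes with UMIs of a Y-linked gene (Ddx3y, Eif2s3y, Kdm5d or Uty) and none of Xist were 45.9% of the vehicle and 23.6% of the 1NMPP1 mature neutrophils, and those with Xist alone 5.11% and 15.1%. The others carried neither or, in 2.02% and 2.38%, both, so sex and treatment cannot be told apart in the totals. Values by called sex are given for some of the results only, beside them or in the closing sections.

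The 6 marker genes are how the cells were found and their values are a description. Cxcr2, the receptor for the chemokines that draw neutrophils out of marrow, was at 856 and 885 UMIs per 1000000 UMIs (CPM, from sums over members). Slc7a11, the cystine importer, was at 3776 and 3857 CPM, and Fpr1, a receptor for bacterial formyl peptides, at 231 and 253 CPM. Of the vehicle members, 229 carried exactly 3 of the markers, 434 carried 4, 546 carried 5 and 279 carried 6, and in the 1NMPP1 library 303, 501, 707 and 337. Vehicle barcodes just inside the marker limit, with 3, had 27284 CPM of S100a8, and the 189 just outside, with 2, had 6742. At the granule limit, the 96 barcodes with 40 to 50 granule UMIs per 10000 had 29927 CPM of Retnlg, a neutrophil hormone-like protein, and the 82 with 50 to 60 had 35871. At the interferon limit, the 51 vehicle barcodes with 2 of the 5 genes had 246 CPM of Isg15 and the 19 with 3 had 723.

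Genes that the rule did not use gave the same picture for most, but not all, of the cells. S100a8 and S100a9, which form calprotectin, an abundant protein of the neutrophil cytosol, made up a median of 16.6% and 15.7% of a barcode's UMIs among the 1395 and 1733 members with under 10000 UMIs. The 93 and 115 members with 10000 UMIs or more had medians of 3.78% and 4.02%. Those deep barcodes were 6.25% and 6.22% of the members and held 29.7% and 26.2% of their UMIs. They carried the primary granule enzymes of progenitors (Mpo, Elane, Prtn3 and Ctsg) at 10311 and 6803 CPM in sum, against 151 and 191 CPM in the other members. The 5 monocyte genes (Csf1r, Ccr2, Ly6c2, F13a1 and Ms4a6c) stood at 2319 and 2882 CPM against 606 and 588. Col2a1, the collagen of cartilage, was at 1800 CPM in the deep vehicle barcodes and 32.6 CPM in the deep 1NMPP1 barcodes, against 141 and 62.8 CPM below that depth, where 1 vehicle cell held 310 of the 776 UMIs. The data thus go against the label for many of the deep barcodes. The results that move with them are given for all members and without the deep ones, a limit that was set after their values had been seen.

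**Figure D1:**
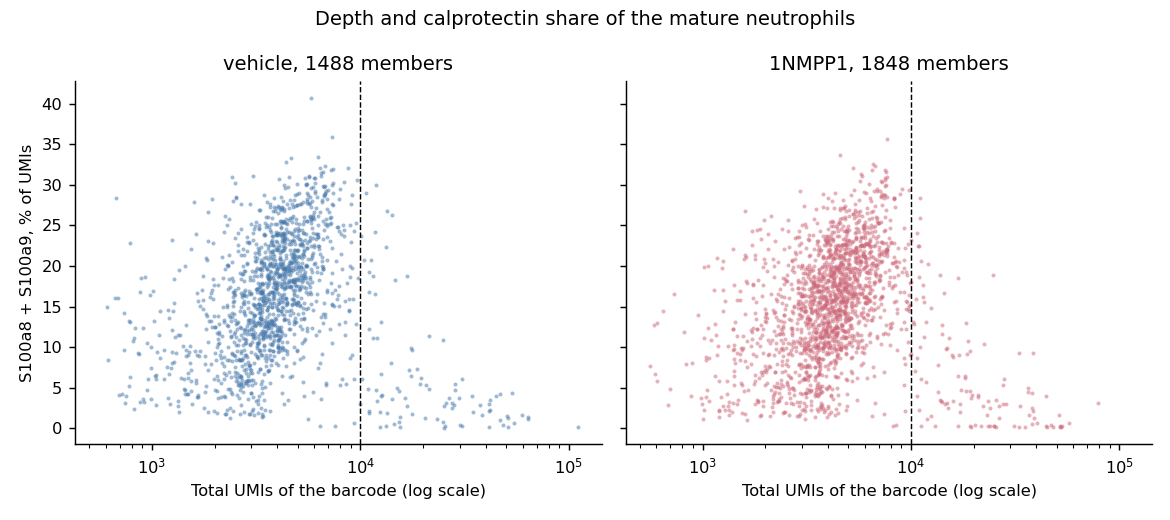
Each point is a mature neutrophil barcode by the rule, with its total UMIs on a log scale against the share of S100a8 and S100a9 in them, vehicle left and 1NMPP1 right. The dashed line marks 10000 UMIs, to the right of which most barcodes fall below 5%.

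Mature neutrophils made up nearly equal shares of both libraries. They were 15.9% (15.1% to 16.6%) of filtered vehicle and 15.9% (15.2% to 16.6%) of filtered 1NMPP1 barcodes, a log2 ratio of 0.0019 (-0.097 to 0.101). Under 10000 UMIs the shares were 14.9% and 14.9%. Within the neutrophils (mature, granule-stage and interferon-state barcodes together) they were 74.4% and 75.4%. Of the barcodes that met the marker and granule limits, the limit on Ebf1 and Cd79a removed 12.9% of 1740 in the vehicle and 20.1% of 2435 in the 1NMPP1 library. Without that limit the shares were 18.2% and 19.9%, a log2 ratio of 0.12 (0.033 to 0.215), so the near equality depends on it. The limit on interferon genes removed 27 and 98 barcodes, 1.78% and 5.04% of those that had met every other limit. As a share of all filtered barcodes this interferon-state group was 0.288% (0.190% to 0.419%) and 0.842% (0.684% to 1.03%). Granule-stage neutrophils were defined by at least 200 granule UMIs per 10000, fewer than 3 of the markers, the same B cell and interferon limits and no UMI of the cell cycle genes Mki67 and Top2a. They were 5.18% (4.74% to 5.65%) and 4.34% (3.98% to 4.73%) of filtered barcodes.

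Mature cells differed from the granule-stage neutrophils of their own library by lower secondary granule transcripts and higher receptor, cytokine and immediate early transcripts. The 486 and 505 granule-stage barcodes are deeper, with medians of 8559 and 8098 UMIs. Since the rule chose the cells on their own counts, this is a description. Over all members, 24.0% of 8681 measured genes were at least 2-fold higher in mature cells in both libraries and 4.96% at least 2-fold lower, and under 10000 UMIs 17.4% and 13.5% of 7086. Levels are relative to all UMIs of a group and say nothing of RNA per cell.

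Secondary granule genes were lower together. Of 12 measured, 11 were at least 2-fold lower in both libraries, with or without the deep barcodes. Of all measured genes, 4.96% were over all members and 13.5% without the deep barcodes. These 11 include Ngp, Camp and Ltf, whose sum is held low in mature and high in granule-stage cells by definition. Their part of the count is fixed in advance by the rule. Outside it, Chil3, a chitinase-like lectin, was at 5273 and 5675 CPM in granule-stage and 112 and 194 CPM in mature cells, log2 ratios of -5.55 and -4.87. Orm1, an acute-phase carrier protein, had ratios of -6.99 and -5.87. Cybb, the catalytic subunit of the NADPH oxidase, had -3.03 and -2.91, and Lcn2, the iron-siderophore trap lipocalin 2, -2.97 and -3.12 (15386 and 14206 against 1962 and 1631 CPM). Hp, haptoglobin, was the 1 member past neither fold, at -0.27 and -0.13. The calprotectin genes were lower by less, S100a8 at -1.29 and -1.25 and S100a9 at -0.99 and -0.91, and without the deep barcodes -0.92 and -0.95 for S100a8. Gelatinase granule genes were mixed. Mmp9, the gelatinase itself, was at 0.65 and 0.69 and Retnlg at 3.29 and 3.28, while Itgam, the CD11b chain of the complement receptor, was at -1.07 and -1.11.

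Receptors, cytokines and feedback genes were higher. Of 29 surface receptors, 19 were at least 2-fold higher in both libraries over all members (24.0% of all measured genes were). Without the deep barcodes 22 were (17.4% of all measured genes). Clec4d, a C-type lectin for microbial glycolipids, was at 45.9 and 40.6 CPM in granule-stage and 1912 and 2049 CPM in mature cells, ratios of 5.38 and 5.65. Csf3r, the receptor of the growth factor G-CSF, had 2.63 and 2.84, and Cxcr4, the marrow retention receptor, 1.67 and 1.82. Fpr2 had -0.43 and -0.51, within 2-fold, although its neighbour in function Fpr1 is a marker of the rule. Of 16 cytokines and chemokines, 13 were higher over all members and 13 without the deep barcodes, against the same 24.0% and 17.4% of all genes. Il1b, the fever cytokine IL-1β, was at 93.9 and 62.9 CPM in granule-stage and 4771 and 5165 CPM in mature cells. Its ratios were 5.67 and 6.36, those of the chemokines Ccl4 6.41 and 6.08 and Ccl6 6.05 and 5.99, and those of the neutrophil attractant Cxcl2 5.45 and 5.60. All 21 immediate early genes measured without the deep barcodes were at least 2-fold higher, against 17.4% of all genes. Egr1, a zinc finger transcription factor, was at 4.51 and 4.83 and Junb, an AP-1 subunit, at 3.64 and 3.59. Of 15 genes of NF-κB feedback, 12 were higher without the deep barcodes, against that 17.4%. Among them was Nfkbia, the inhibitor of NF-κB, at 3.05 and 2.62.

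Further genes named by their size were Acod1, which makes itaconate, at 6.41 and 6.80, the class I gene H2-Q10 at 5.73 and 6.48 and the signal-regulatory gene Sirpb1b at 5.53 and 6.61. Stefin A genes, a cluster of cysteine protease inhibitors, were 7 of 7 higher. Of all measured genes, 24.0% were over all members and 17.4% without the deep barcodes. The stefin A medians were 5.32 and 5.26 without the deep barcodes, or 5.19 and 4.71 with Csta3 at its bound. Csta3 had 0 UMIs in granule-stage cells and was at least 26.4-fold and 16.7-fold higher in mature cells, against a floor of 3 UMIs over the group. Cstdc4, from the same cluster, had 5.66 and 6.31. Il1bos, an antisense transcript of Il1b, also had 0 UMIs there and was at least 18.0-fold and 19.6-fold higher. Reads of an antisense gene and its partner cannot be told apart unless the counting used strand. On the low side stood Zmpste24, a protease that processes prelamin A, at -4.98 and -5.12, the lactate dehydrogenase gene Ldhc at -4.98 and -4.85, the short-chain fatty acid receptor Ffar2 at -4.42 and -4.47, the formin Fmnl2 at -4.37 and -4.54 and the lipid transporter Abca13 at -4.29 and -4.56. Pknox2, Cldn1, Adtrp, Ica1 and Tmem216 had ratios between -5.59 and -4.26. Mki67 and Top2a are at 0 in granule-stage cells by definition and are not read, and Saa3, an acute-phase protein, had 2 and 0 UMIs there, too few for a ratio.

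**Figure D2:**
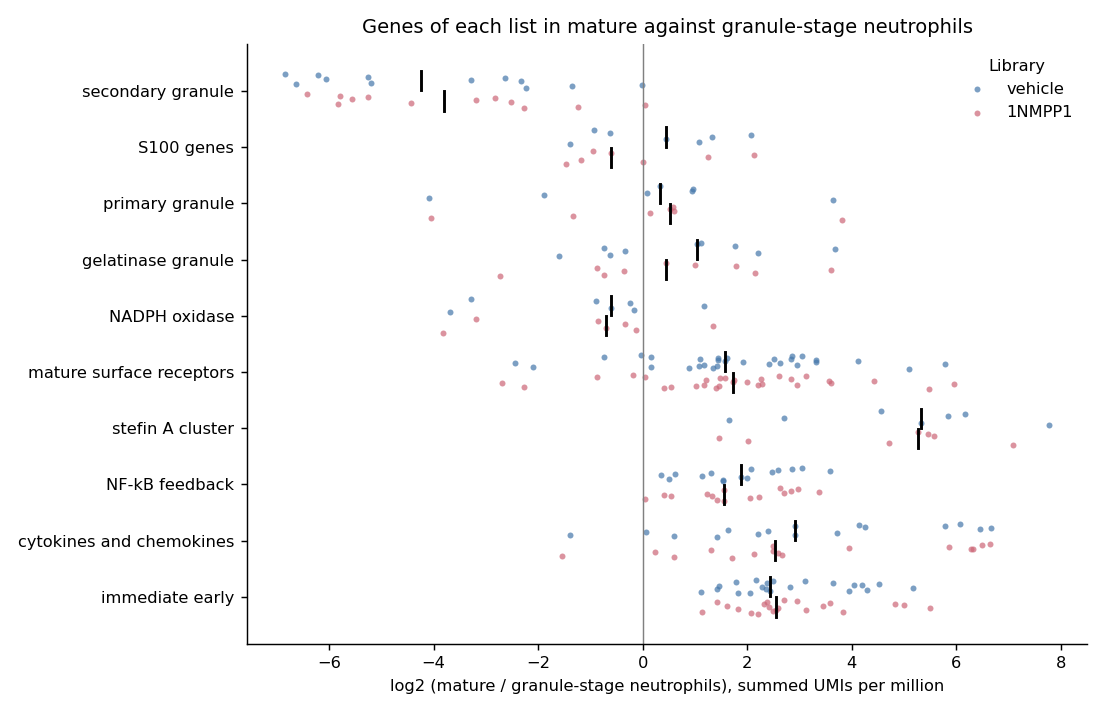
Each point is a gene of the list at left, placed by its log2 ratio of mature over granule-stage neutrophils, for members under 10000 UMIs. Blue is the vehicle and red the 1NMPP1 library. Black bars are medians, which lie near -4 for secondary granule genes and above 2 for immediate early genes in both libraries. The secondary granule list includes Ngp, Camp and Ltf, which define both groups.

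Promoter sequences of a gene from each side show what these transcripts carry upstream. Windows of 250 bases before the start (RefSeq, GRCm38.p6) were searched on both strands for C/EBP (TTNNGCAA), PU.1 (GAGGAAG), AP-1 (TGANTCA), NF-κB (GGG and TTCC with any 3 bases between) and the interferon-stimulated response element (GAAA and GAAA with any 2 bases between). The NF-κB letters were in 4.60% of all 27025 promoters, in 5.49% of the 5651 of measured genes, in 7.00% of the 929 of genes higher in mature cells under 10000 UMIs and in 3.39% of the 767 of lower ones. In the same order, PU.1 letters were in 10.39%, 11.80%, 14.96% and 10.56%, C/EBP letters in 9.55%, 7.64%, 9.36% and 10.8%, and AP-1 letters in 6.87%, 4.30%, 6.89% and 4.30%. A match is a description of letters and not of binding. Of the 13 cytokine and chemokine list promoters, 4 had AP-1 letters, 2 NF-κB, 2 PU.1, 1 interferon element and 0 C/EBP letters. Of the 10 secondary granule ones, 4 had C/EBP letters, 2 PU.1, 1 AP-1, 1 interferon element and 0 NF-κB letters. Il1b, Ccl3 and Camp had no match to any of these letters, and the genes shown next are among those with matches. The 150 bases before the start are shown for 2 granule genes lower in mature cells and for a chemokine gene higher in them, 5′ to 3′ on the strand of the gene, with C/EBP letters (Ltf, Ngp) or NF-κB letters (Cxcl2, 3 matches of which 2 overlap) in capitals. Ltf lies at chr9:111019142-111019291 on the plus strand, Ngp at chr9:110419658-110419807 on the plus strand and Cxcl2 at chr5:90903749-90903898 on the plus strand.
Ltf: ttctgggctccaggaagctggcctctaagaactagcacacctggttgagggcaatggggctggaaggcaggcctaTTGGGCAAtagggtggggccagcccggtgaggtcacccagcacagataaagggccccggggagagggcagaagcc
Ngp: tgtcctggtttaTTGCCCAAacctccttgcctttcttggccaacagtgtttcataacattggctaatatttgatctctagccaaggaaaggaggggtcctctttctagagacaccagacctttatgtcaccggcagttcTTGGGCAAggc
Cxcl2: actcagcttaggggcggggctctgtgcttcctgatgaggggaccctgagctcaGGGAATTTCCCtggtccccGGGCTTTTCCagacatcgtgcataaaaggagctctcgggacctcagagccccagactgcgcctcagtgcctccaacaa

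The mature cells differed among themselves most in Retnlg, by the variance over the mean. With each barcode thinned to 1000 UMIs, 1359 and 1717 members under 10000 UMIs remained, and the variance over the mean was taken for 2223 genes, with medians of 1.10 and 1.10. Retnlg led with 12.6 and 12.7. Next came Stfa1, Cstdc4, Ccl4, Cxcl2, Cstdc5 and Il1b, followed by Dhx40, Stfa2l1, the ferritin chain Fth1, the lectin-like scavenger receptor Olr1 and the nuclear RNA Malat1. Ccl4 was present in 25.8% and 27.7% of the thinned cells, at variances 8.76 and 6.51 times the mean. Among all members, Elane and Prtn3, made by progenitors, entered the leading 12. In thinned B-lineage barcodes, which should lack these genes, Ccl4 had a UMI in 1.52% and 2.66% and Il1b in 7.11% and 8.39%, against 89.9% and 90.1% of mature cells (unthinned 94.98% and 96.13%). Median depths before thinning were 3770 and 4114 UMIs in these mature cells and 6075 and 7591.5 in B-lineage barcodes. Thinning left out 36 and 16 mature cells.

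Cells high in Retnlg were high in Mmp8 and Lcn2 and low in several activation genes. The thinned cells of each library were put in 4 groups of near equal size by Retnlg, from means of 45.6 and 44.9 UMIs per thinned cell in the highest to 3.01 and 2.73 in the lowest. From the highest to the lowest group, Mmp8, the neutrophil collagenase, went from 2.81 to 0.513 mean UMIs in the vehicle and from 2.06 to 0.357 in the 1NMPP1 library. Lcn2 went from 3.52 to 0.894 and from 2.99 to 0.732. In the other direction, Il1b went from 3.47 to 12.0 and from 3.68 to 10.8, and Ptgs2, the inducible prostaglandin synthase, from 0.400 to 2.24 and from 0.405 to 2.02. Cxcr4 went from 0.226 to 0.602 and from 0.253 to 0.606, and Csf3r from 0.988 to 2.00 and from 0.953 to 2.23. Camp and Ltf, granule genes of the rule, went slightly up, Camp from 0.624 to 0.726 and from 0.821 to 0.970 and Ltf from 0.112 to 0.159 and from 0.151 to 0.207, and so did Chil3, from 0.0912 to 0.103 and from 0.102 to 0.133. Ngp, the other granule gene of the rule, went down, from 1.34 to 0.510 and from 1.47 to 0.608. Depth fell from medians of 4634.5 to 3062 and of 4949.5 to 3517 UMIs, and its part in the pattern beyond the thinning was not tested.

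Correlations across the thinned cells are a description over cells that share a library and a fixed total. S100a8 and S100a9 had Pearson r of 0.89 and 0.89, Retnlg and S100a8 0.71 and 0.74, Retnlg and Mmp8 0.48 and 0.46 and Retnlg and Lcn2 0.42 and 0.42. Retnlg and Camp had -0.04 and -0.07, near 0. Retnlg and Il1b had -0.51 and -0.48, Il1b and Junb, a subunit of the transcription factor AP-1, 0.41 and 0.42, and the chemokine pair Ccl3 and Ccl4 0.34 and 0.34.

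**Figure D3:**
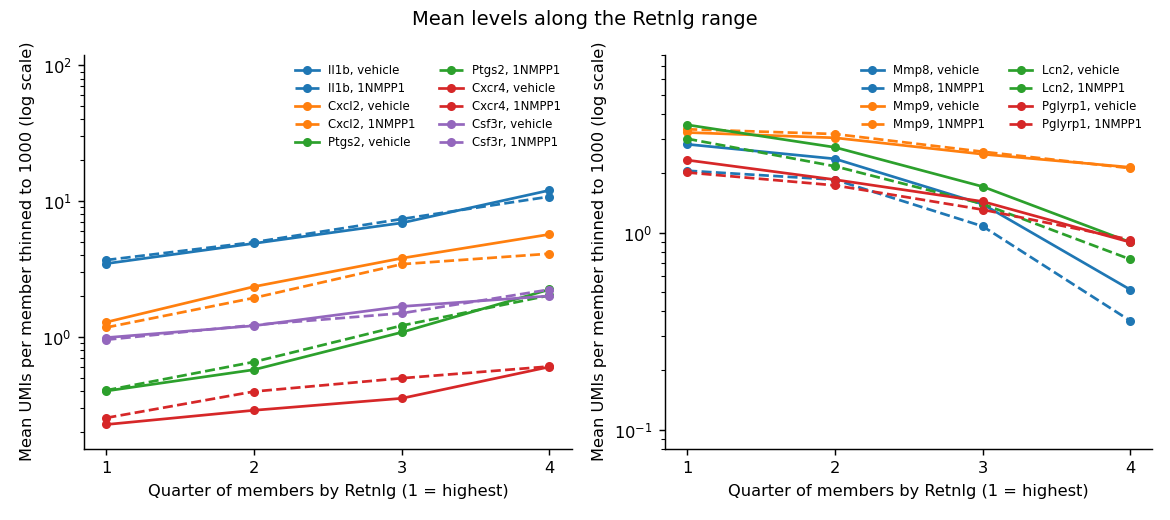
Mean UMIs per mature neutrophil thinned to 1000 UMIs, on a log scale, in 4 groups of the members under 10000 UMIs from the highest (1) to the lowest (4) Retnlg, solid for vehicle and dashed for 1NMPP1. Il1b, Cxcl2, Ptgs2, Cxcr4 and Csf3r climb along the groups at left, and Mmp8, Mmp9, Lcn2 and Pglyrp1 decline at right.

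Between the treatments, few genes of the mature neutrophils differed by 1.5-fold. Over all members, 357 of 10055 measured genes (3.55%) were at least 1.5-fold higher in the 1NMPP1 library and 899 (8.94%) at least 1.5-fold lower, by the log2 ratio of CPM with 0.5 UMI added to each sum. Without the deep barcodes the balance turned, with 354 of 7648 (4.63%) higher and 183 (2.39%) lower, with 60.1% of genes above 0 and 39.9% below, against 45.6% and 54.4% over all members. The median gene was at -0.03 over all members and at 0.05 without the deep ones. Of the genes past 1.5-fold, 28.4% were higher over all members and 65.9% without the deep ones, and 60.2% when each member was thinned to 1000 UMIs. With 1 library a side these are sizes and not tests.

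Interferon response genes outside the rule were higher in the 1NMPP1 library. Of 28 measured, 24 were above 0 over all members (45.6% of all genes were) and 21 without the deep barcodes (60.1%), with medians of 0.37 and 0.33. A total of 9 were at least 1.5-fold higher in either set, where 3.55% of all genes were over all members and 4.63% without the deep barcodes. Without the deep barcodes 2 were at least 1.5-fold lower (2.39% of all genes). The rule caps 5 interferon genes in both libraries, and with no such cap the median was 0.49. Isg15, a ubiquitin-like antiviral protein, was at 98.8 (91.9 to 106) CPM in the vehicle and 140.4 (133 to 148) CPM in the 1NMPP1 cells, a log2 ratio of 0.51 (0.38 to 0.64). Irf7, the regulator that amplifies interferon production, was at 31.8 and 56.5 CPM, a ratio of 0.83 (0.61 to 1.05). Ifi27l2a, an interferon-induced membrane protein, had 583 and 1013 CPM and a ratio of 0.80 (0.75 to 0.85), Oasl2, a relative of the antiviral oligoadenylate synthetases, 0.76 (0.63 to 0.88), and Slfn5, of the Schlafen family, 0.88 (0.70 to 1.06). Xaf1, an inducer of apoptosis, was higher by 0.94 (0.52 to 1.38) on the log2 scale and Rtp4, a receptor chaperone, by 0.70 (0.58 to 0.82).

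Other members of the list went the other way. Ifitm1, which blocks virus entry, was at 637 (619 to 655) CPM in vehicle and 462 (448 to 475) CPM in 1NMPP1 cells, a ratio of -0.46 (-0.52 to -0.41), and -0.60 without the deep barcodes. Its relative Ifitm6 had -0.48 (-0.54 to -0.43) and -0.60, and Ifitm2 -0.22 (-0.27 to -0.17) and -0.32. Ifitm3 differed by 0.13 (0.08 to 0.18) and by 0.00 without the deep barcodes.

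The interferon genes were higher in male-called cells, while in female-called cells the direction depended on the deep barcodes. Among male-called members under 10000 UMIs, 23 of 26 genes were above 0, with a median of 0.56, and among female-called ones 7 of 21, with a median of -0.14. Over all depths the medians were 0.64 (25 of 28 above 0) and 0.20 (16 of 24). The share of all genes above 0 is not given for these sets. Of all genes measured under 10000 UMIs, 4.97% were at least 1.5-fold higher and 3.74% lower in male-called cells. In female-called cells 14.9% and 5.22% were. Over all depths the shares were 3.92% and 13.5% in male-called and 17.4% and 13.2% in female-called members. Only 65 vehicle cells under 10000 UMIs were female-called, against 240 in the 1NMPP1 library and 623 and 401 male-called ones. Isg15 was at 119 and 202 CPM in male-called and at 189 and 171 CPM in female-called cells. Irf7 was at 33.9 and 85.1 CPM in male-called and 40.7 and 57.3 CPM in female-called cells, where the intervals overlap. A difference between the sexes was not tested. In B-lineage barcodes and monocytes of the same libraries the same genes also had positive ratios, Irf7 0.96 in B-lineage barcodes and 0.74 in monocytes, and Isg15 0.71 and 0.56. In granule-stage cells Irf7 had 0.18 (-0.24 to 0.60) and Isg15 0.30 (-0.11 to 0.73), and both intervals include 0. Other genes of the list were higher there, Ifi27l2a by 1.75 (1.56 to 1.96), Rtp4 by 1.40 (0.90 to 1.94) and Xaf1 by 1.12 (0.39 to 1.93). Oasl2 had 0.99 (0.41 to 1.62) and Slfn5, on 6 and 33 UMIs, 2.29 (1.11 to 3.93). Ifitm6 was lower in granule-stage cells, at -0.32 (-0.35 to -0.28), and Ifitm1 had -0.17 (-0.80 to 0.45). In ganglion members under 10000 UMIs, Irf7 had 25 and 55 UMIs, a ratio of 1.41 (0.71 to 2.17), and Isg15 116 and 122 UMIs, a ratio of 0.36 (-0.022 to 0.74). The part of free RNA in these values was not tested.

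**Figure D4:**
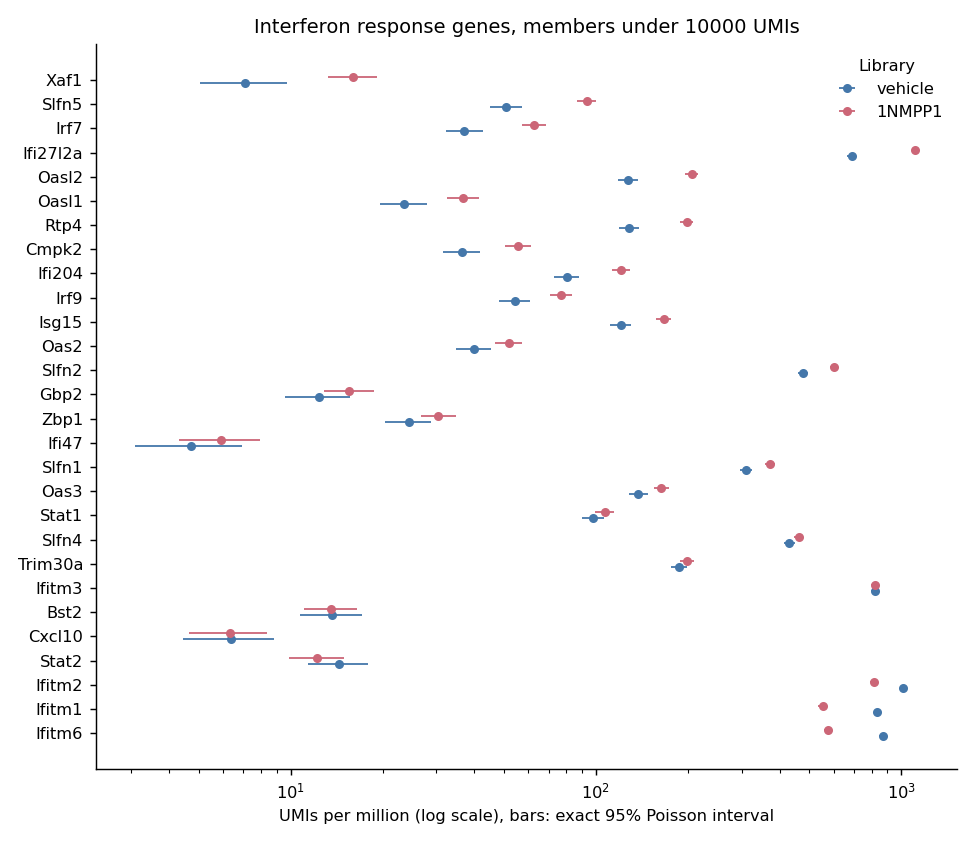
Levels of 28 interferon response genes outside the rule, summed over mature neutrophils under 10000 UMIs, in CPM on a log scale with exact 95% Poisson intervals. Blue is vehicle and red 1NMPP1, and genes are ordered by their ratio, from Xaf1 at the top to Ifitm6 at the bottom, where red lies left of blue.

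Letters of the response element were present upstream of 9 of the 22 interferon list genes with a RefSeq promoter, 40.9%, against 3.04% of all promoters and 2.97% of those of measured genes. The 150 bases before the start of Isg15, at chr4:156200819-156200968 on the minus strand, are shown because they hold 3 overlapping matches, in capitals.
Isg15: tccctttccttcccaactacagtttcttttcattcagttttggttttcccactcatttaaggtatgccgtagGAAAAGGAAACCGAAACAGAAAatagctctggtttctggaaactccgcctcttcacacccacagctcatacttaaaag

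Immediate early genes were slightly higher in the 1NMPP1 library. Over all members 18 of 22 were above 0, with a median of 0.25, and without the deep barcodes 18 of 21, with a median of 0.17, where 60.1% of all genes were above 0. None reached 1.5-fold over all members. Jund, an AP-1 subunit, reached it without the deep barcodes, at 321 and 483 CPM and a ratio of 0.59 (0.50 to 0.67). Zfp36, which degrades cytokine mRNAs, had 0.47 (0.42 to 0.51), Egr2 0.54 (0.40 to 0.68), Ier5 0.52 (0.44 to 0.60) and Atf3 0.40 (0.30 to 0.50). Fos, the best known of them, was at 1765 and 2148 CPM, a ratio of 0.28 (0.25 to 0.31). Handling of tissue is also known to induce these genes.

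Most cytokine and receptor genes had ratios within 1.5-fold, while the granule lists differed from each other. Il1b was at 4771 (4723 to 4819.8) and 5165 (5121 to 5209.6) CPM, a ratio of 0.11 (0.10 to 0.13), and 0.00 without the deep barcodes. Prok2 and Il1a were the 2 past 1.5-fold, both lower. Of 17 cytokines 10 were above 0 (45.6% of all genes were), with a median of 0.10, and -0.01 for 16 without the deep barcodes. Cxcl2 was at 2432 and 2071 CPM, a ratio of -0.23 (-0.26 to -0.20). Under 10000 UMIs Cxcl2 had -0.07 (-0.12 to -0.02) in male-called and -0.69 (-0.79 to -0.59) in female-called cells. Ccl4 had 0.22 (0.18 to 0.27) and Ccl6 0.30 (0.27 to 0.33). Of 29 surface receptors 24 were above 0 over all members, against that 45.6%, with a median of 0.11. Without the deep barcodes 17 were, against 60.1% of all genes, with a median of 0.01. No receptor reached 1.5-fold in either direction. Cxcr4 was at 282 and 358 CPM, with ratios of 0.34 (0.27 to 0.42) and 0.27 without the deep barcodes. B-lineage cells make Cxcr4 too, so they give no background for it. Itga4, a chain of the VLA-4 integrin that binds marrow stroma, had 0.30 and, without the deep barcodes, 0.57 (0.38 to 0.77). Chil3 was higher by 0.79 (0.67 to 0.91) on the log2 scale, and by 0.59 without the deep barcodes. It differed by 0.67 in B-lineage barcodes, 0.60 in monocytes and 0.11 in granule-stage cells. Thinned, Chil3 had a UMI in 8.24% and 11.1% of mature cells under 10000 UMIs. In B-lineage barcodes it had one in 9.14% and 13.3%, so the mature cells lie near the B-lineage shares. Mmp8 and Lcn2 had ratios of -0.29 (-0.32 to -0.25) and -0.27 (-0.30 to -0.23). The primary granule list had a median of -0.66 over all members, with 7 of 8 genes below 0 (54.4% of all genes were). Of these 8, 6 were at least 1.5-fold lower (8.94% of all genes were). Without the deep barcodes its median was 0.24, with 6 of 7 above 0 (60.1% of all genes were). The direction of the list thus rests on the deep barcodes. Mpo, myeloperoxidase, had -0.63 and 0.56, and Elane, neutrophil elastase, -0.59 and 0.24. The medians of the heat shock list (-0.41 and 0.09) and the proliferation list (-0.33 and 0.14) turned in the same way. Thinned, Mpo had a UMI in 3.53% and 5.36% of mature cells under 10000 UMIs and in 4.69% and 5.10% of B-lineage barcodes. Elane had 5.15% and 4.95% against 5.02% and 4.76%, so both lie near the B-lineage shares.

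Most stefin A genes were lower in the 1NMPP1 library. Of 7 measured, 5 were below 0 both over all members (54.4% of all genes were) and without the deep barcodes (39.9%). The medians were -0.24 and, without the deep barcodes, -0.30. Over all members 3 were at least 1.5-fold lower (8.94% of all genes were). Stfa2 was at 63.5 and 38.7 CPM, a ratio of -0.72 (-0.91 to -0.52), Stfa3 at -0.59 (-0.81 to -0.37) and Csta3 at -0.73 (-1.08 to -0.39). Stfa2l1 had -0.24 (-0.28 to -0.19), and Stfa1 0.02 (-0.05 to 0.09). In male-called cells under 10000 UMIs Stfa2 had -0.10 (-0.46 to 0.25) and Stfa3 -0.79 (-1.32 to -0.29). In female-called ones they had -0.75 (-1.34 to -0.13) and -1.54 (-2.15 to -0.92). The list median was -0.10 in these male-called and -0.75 in these female-called cells. Under 10000 UMIs, 12 vehicle cells held over 50% of the UMIs of Stfa2 and 8 of those of Stfa3, so counting intervals are too narrow for them. Some transcript ends of the cluster resemble those of other genes. Of the 60-base windows in the last 500 bases, 18.0% of Stfa1, 16.9% of Stfa2l1 and 10.2% of Stfa2 were found in another gene, and none of Stfa3.

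The lowest genes of the 1NMPP1 cells that belong to neutrophils were Prok2 and Wfdc17, and their levels differed by called sex within the vehicle library. Prok2, a chemokine-like peptide, was at 57.9 (52.7 to 63.5) CPM in vehicle and 20.9 (18.2 to 23.9) CPM in 1NMPP1 cells, a ratio of -1.47 (-1.71 to -1.23), and -1.57 (-1.83 to -1.32) without the deep barcodes. Wfdc17, a small whey acidic domain protein of activated myeloid cells, had -1.38 (-1.46 to -1.30) there, at 663 and 254 CPM. Among members under 10000 UMIs, Prok2 was at 23.9 CPM in male-called and 235 CPM in female-called vehicle cells, against 23.7 and 24.5 CPM in the 1NMPP1 library. The vehicle cells with no call or both calls had 103 CPM. Prok2 thus differed by -0.01 (-0.62 to 0.58) within male-called and by -3.25 (-3.93 to -2.64) within female-called cells. Wfdc17 was at 224 and 1531 CPM in male- and female-called vehicle cells and at 159 and 304 CPM in the 1NMPP1 library, ratios of -0.49 and -2.33. In ganglion members under 10000 UMIs, Prok2 had 41 and 10 UMIs, a ratio of -1.70 (-2.91 to -0.73), and Wfdc17 399 and 116 UMIs, a ratio of -1.49 (-1.81 to -1.20). A difference between the sexes was not tested.

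The 65 female-called vehicle cells stood apart in further genes. Ifitm6 was at 2097 CPM there and between 531 and 735 CPM in the other 3 called sets. Ifitm1 was at 1574 against 383 to 568 CPM, and Lcn2 at 4447 against 1675 to 2349.6 CPM. Csf3r was lower, at 947 against 1270.1 to 1478 CPM, and so was Cxcr4, at 195 against 350.0 to 447 CPM. Cxcr2, a gene of the rule, ranged over the 4 sets from 1066 to 1165 CPM. Their median granule share was 17.3 per 10000, against 13.6 in male-called vehicle and 16.4 and 18.3 in male- and female-called 1NMPP1 cells. Vehicle cells under 10000 UMIs held 776 Col2a1 UMIs. Of these, 326 lay in the 65 cells, 223 in male-called cells and 221 in cells with neither call. The cell that held 310 of the 776 is therefore 1 of the 65, with 8135 of their 344300 UMIs. Its part in their levels was not tested. Sex, animal and other properties of the 65 cells cannot be told apart with 1 library a group.

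**Figure D5:**
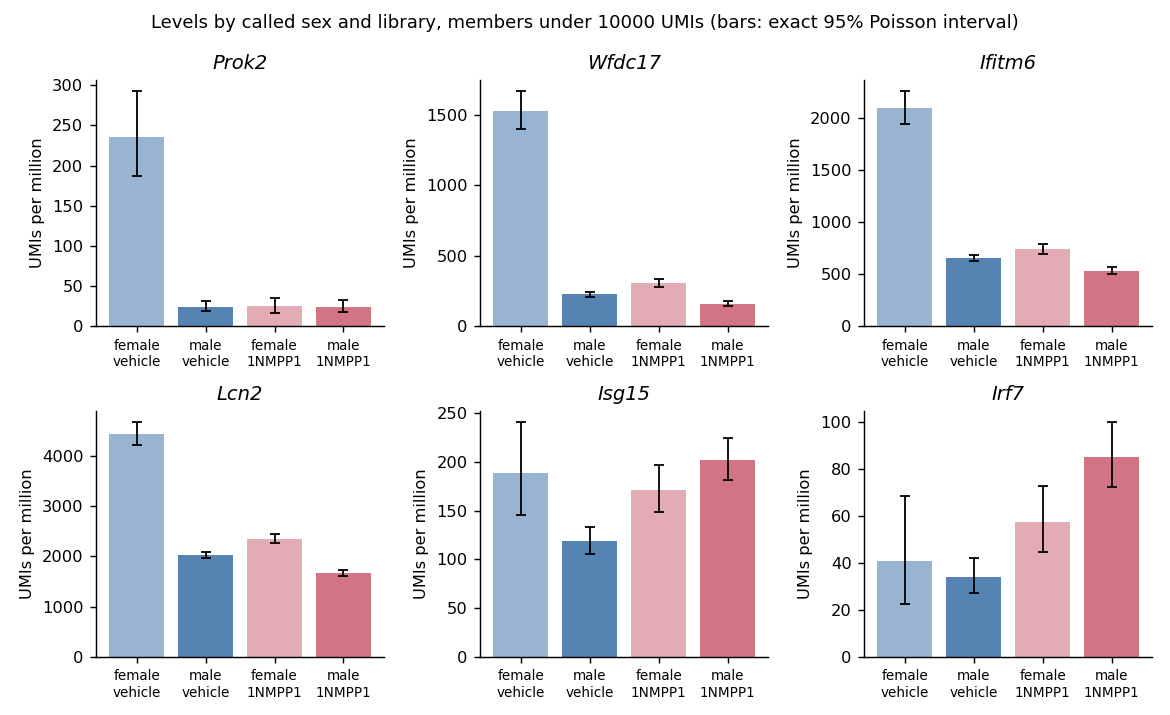
CPM of 6 genes in mature neutrophils under 10000 UMIs by called sex and library, blue for vehicle and red for 1NMPP1, with exact 95% Poisson intervals. The bars of the female-called vehicle cells are the highest for Prok2, Wfdc17, Ifitm6 and Lcn2, while Irf7 is highest in male-called 1NMPP1 cells.

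Some genes with the largest ratios had like ratios in other classes of the growth plate libraries. Eno1, the glycolytic enolase, was at 26.3 and 122 CPM, a ratio of 2.21 (2.00 to 2.43), and differed by 2.12 in B-lineage barcodes, 2.22 in monocytes and 2.35 in granule-stage cells. Its near copy Eno1b went the other way, at -0.99 without the deep barcodes, and the sum of the pair differed by 1.52 (1.31 to 1.75). Hmgn2, a nucleosome-binding protein, was higher by 1.43 without the deep barcodes and by 1.46, 1.14 and 1.30 in those classes. Pde1c, a phosphodiesterase, had -1.29 without the deep barcodes and -1.31, -1.38 and -1.59. In DRG members under 10000 UMIs, Eno1 differed by -0.22 and Hmgn2 by 0.13, but Pde1c went the other way than in the growth plate, at 1.24 (0.48 to 2.06). Several of these genes have near-identical copies and are uncertain. The share of 60-base windows in the last 500 bases found in another gene was 92.9% for the histone gene Hist1h2ap (ratios of 3.86 over all members and 3.13 without the deep barcodes), 78.2% for the dynein light chain Dynlt1f (1.52 and 1.55), 52.8% for Hist1h2ae (1.31 and 1.25), 51.2% for Oas1a (1.37 and 1.23), 80.4% for Eno1b and 38.1% for Eno1. It was 37.1% for the proteasome gene Adrm1 (1.42 and 2.17) and 27.0% for the thioesterase Acot1 (1.44 and 1.59). The cytokine receptor gene Il31ra had 1.37 (1.01 to 1.76) and 1.39 without the deep barcodes, and the class I gene H2-Q4 1.28 (0.83 to 1.78) and 1.34. Cd74, the class II invariant chain, had 1.26 over all members and 0.42 without them. Ahsa1, a co-chaperone, had 1.21 and 1.51, and Wdr89 was lower at -1.50 and -1.12.

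Cartilage and bone matrix genes were the lowest over all members, with ratios nearer 0 once the deep barcodes were left out. Col2a1 was at 634 and 54.9 CPM, a ratio of -3.53 (-3.66 to -3.40), and -1.17 without the deep barcodes. Sparc, a matrix glycoprotein of bone, went from -3.99 to -1.09, Comp from -3.92 to -1.23, Snorc from -3.78 to -1.27, Mgp from -3.60 to -0.53, Col9a3 from -3.58 to -1.12, Col11a2 from -2.79 to -0.74 and Col1a1 from -1.26 to -0.20. Much of what remained lay in 1 vehicle cell, which held 310 of the 776 Col2a1 UMIs of the vehicle cells under 10000 UMIs, 199 of the 362 Sparc, 38 of the 115 Comp and 66 of the 150 Snorc UMIs. Without that cell, chosen after seeing the data, Col2a1 was at 84.9 and 62.8 CPM, a ratio of -0.43 (-0.62 to -0.24). Sparc then had 0.056 (-0.24 to 0.36), Snorc -0.44 (-0.89 to 0.014), Mgp -0.16 (-0.48 to 0.18), Col11a2 -0.28 (-0.77 to 0.21) and Col1a1 -0.17 (-0.59 to 0.25), intervals that include 0. Comp had -0.66 (-1.16 to -0.17) and Col9a3 -0.69 (-1.17 to -0.21). Thinned to 1000 UMIs, a Col2a1 UMI was in 8.90% and 6.58% of mature cells and in 6.11% and 4.53% of B-lineage barcodes, which do not make it. The 10 chondrocyte markers summed to 1103 and 89.6 CPM over all members and to 224 and 104 CPM without the deep ones (142 CPM in vehicle cells also without that cell), and erythroid markers there to 1957 and 409 CPM. Sums of other markers without the deep barcodes were 146 and 189 CPM for B-lineage, 708 and 696 for monocyte, 125 and 119.7 for macrophage and 21.5 and 28.2 for T and NK genes. Their part in the differences above was not tested.

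The same rule found 138 barcodes in the vehicle and 162 in the 1NMPP1 ganglion library, 4.70% and 7.36% of those filtered. Their median granule share was 1.76 and 0 per 10000, below the 13.9 and 16.8 of the growth plate cells, and Camp was at 151 and 151 CPM under 10000 UMIs against 627 and 774 CPM in the growth plate. Icam1, an adhesion molecule for leukocyte integrins, was at 115 and 68.8 CPM in the ganglia and 26.2 and 22.8 CPM in the growth plate. Tnf was at 169.6 and 193 CPM against 87.8 and 86.2, and Cxcr4 at 440.0 and 683 CPM against 335 and 403. In the other direction, Slc7a11, of the rule, was at 2699 and 1899 CPM against 5020.4 and 4748, and Ccl4 at 518 and 352 CPM against 955 and 1105. Il1b was at 6827 and 6939.5 CPM against 6305 and 6325. Ganglia were digested with papain, collagenase and dispase and growth plates with collagenase alone, so tissue, digestion and library cannot be told apart.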

How the data were processed

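Filtered single-cell matrices of UMI counts were deposited for 4 libraries, and the counts come from Cell Ranger 7.2.0, per the file headers, on mm10, per the submitters' processing notes. Cells had been captured on the 10x Chromium platform, per the labels' protocols. UMIs of members were summed per library, and a log2 ratio of CPM was taken with 0.5 UMI added, for genes with at least 50 UMIs over both libraries. With 1 library a group nothing was tested, and a ratio of 1.5-fold between treatments, or 2-fold in both libraries against granule-stage cells, is a size. Intervals are exact (Clopper-Pearson for shares, Poisson for levels, conditional binomial for ratios) at 95%. On simulated sums for 10048 genes, 98.5% of genes changed 2-fold passed 1.5-fold, 43.3% of those changed 1.5-fold did, and 1.66% of unchanged ones did. The changed genes were 67 for each of these folds, drawn from genes with at least 100 UMIs. The sums had Poisson counting error alone, with no spread between cells, animals or libraries. These rates therefore do not hold for the deposited data, which have such spread.

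Named genes were the 10 highest and 10 lowest by treatment ratio with at least 100 UMIs and a UMI in 5% of members, the 12 highest and 12 lowest against granule-stage cells, the 12 most variable, and members of the lists. The same rule was repeated without the deep barcodes, which was chosen after seeing the data. The members and lists were chosen with earlier results of these data known. Scrublet's own threshold marked 1 and 0 barcodes and so did not work. Doublets were therefore left in, and removal of the highest scores (0.8% per 1000 barcodes) is an alternative. Other alternatives changed the rule's limits, depth, weighting, scaling, low-count filter and sexes. Values of the altered kinase gene and of 1 receptor gene are not reported here. Python 3.11.15, numpy 2.4.6, scipy 1.17.1, pandas 2.3.3 and scanpy 1.11.5 were used.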

Additional observations from a re-analysis of the deposited data

Results flagged for a closer look

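The vehicle library also counted an added sequence named AAV_PHP_S, a viral vector label that no comparison here uses. It had 92 UMIs in 8 of the 7892 other filtered vehicle barcodes and 0 in the 1488 mature neutrophils, which allows 3 UMIs by counting error.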

How the results depend on the processing

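No paired analysis was possible because each group has 1 library, and for the same reason no replicate could be left out. The intervals cover counting error only, and differences between animals are not in them. The cause of each change was not tested. The share ratio of 0.0019 became 0.24 in female-called barcodes and 0.12 with no limit on Ebf1 and Cd79a. The 899 genes lower by 1.5-fold became 1662 without the highest Scrublet scores, 570 with a granule limit of 25, 141 thinned to 1000 UMIs, 183 without deep barcodes, 471 without the B-lineage limit, 200 in male-called and 169 in female-called cells under 10000 UMIs, 1496 from 20 UMIs and 281 from 200 UMIs. The 357 higher became 213 thinned, 989 in female-called members, 629 with each cell weighing alike, 686 from 20 and 111 from 200 UMIs. List medians moved as follows. Receptors (0.11) had 0.25 in female-called members, 0.012 without deep barcodes, 0.036 without the B-lineage limit, 0.029 and 0.024 in male- and female-called cells under 10000 UMIs and 0.0085 with cells alike. Cytokines (0.10) had 0.40 in female-called members. Immediate early genes (0.25) had 0.16 thinned, 0.54 in female-called members, 0.17 without deep barcodes and 0.17 with cells alike. Interferon genes (0.37) had 0.64 in male- and 0.20 in female-called members and -0.14 in female-called cells under 10000 UMIs. Stefin A genes (-0.24) had -0.18 without the highest Scrublet scores, -0.58 with a granule limit of 25, -0.023 in male-called members, and -0.10 and -0.75 in male- and female-called cells under 10000 UMIs. Against granule-stage cells, the 2083 higher and 431 lower genes became 722 and 282 thinned, and 1230 and 960 without deep barcodes. Values of at least 1.5-fold that turned sign were as follows. The primary granule median had 0.24 without deep barcodes and 0.10 and 0.36 in their male- and female-called cells. In the same order, Mpo had 0.56, 0.56 and 0.98, Prtn3 0.27, 0.32 and 0.54, and Elane 0.24 and 0.11. Mgp had 0.15 in male-called and Slfn5 -0.57 in female-called cells under 10000 UMIs. Cd74 had -0.48 and Prok2 0.16 in male-called members. Col1a1 had 0.22 thinned and 2.51 without the B-lineage limit, and Stfa3 0.11 thinned. Sparc had 0.056 under 10000 UMIs less 1 vehicle cell. Of 1376 values of 184 gene ratios under alternatives, 16 turned sign from a main ratio of at least 1.5-fold, or 2-fold against granule-stage cells. Sign changes of smaller ratios or medians are not in that count, such as Isg15 at -0.15 in female-called cells under 10000 UMIs.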

Other observations

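All ratios here are 1NMPP1 over vehicle, over all members and then without the deep barcodes, and some list medians were farther from 0 in female-called members alone. The survival list had medians of 0.07 and 0.01 over 19 genes, and 0.37 in female-called members. Bcl2l1, which encodes the survival protein BCL-XL, was lower, at -0.46 (-0.67 to -0.25) and -0.65. Bcl2a1b and Bcl2a1d, copies of the survival gene for A1, were higher, at 0.66 (0.49 to 0.84) and 1.04 (0.63 to 1.47), but 82.1% and 80.7% of the windows of their transcript ends occur in another gene, so the copies are uncertain. Mcl1, the survival protein on which neutrophils depend, had 0.17 and 0.09. Genes of glutathione and redox balance had medians of 0.05 and 0.09, with Gclm, a subunit of the enzyme that starts glutathione synthesis, at -0.76 (-0.98 to -0.54) and -0.54. NF-κB feedback genes had 0.03 and -0.08 (0.34 in female-called members), with Tnfaip2 at 0.57 (0.50 to 0.65) and 0.48.

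The remaining lists had the following medians. Those of secondary granule genes were 0.14 and 0.09, of gelatinase granule genes 0.01 and -0.06, and of S100 genes 0.06 and -0.05. Retention and egress genes had 0.12 and 0.09 (0.52 in female-called members). Actin and migration genes had 0.07 and 0.01, with 22 and 13 of 23 above 0, against 45.6% and 60.1% of all genes. NADPH oxidase subunits had 0.06 and -0.01, lipid mediator genes -0.03 and -0.01, and glycolysis and hypoxia genes -0.11 and 0.02. Transcription factors had 0.04 and -0.01 (0.38 in female-called members). Cebpe, which drives the secondary granule stage, was lower in mature than in granule-stage cells, at -2.97 and -3.36 in the 2 libraries, and Cebpb, the factor of emergency granulopoiesis, higher, at 2.68 and 2.73. Genes of tissue neutrophils had -0.02 and -0.02, genes of extracellular traps and degranulation 0.01 and 0.02, and RNA quality genes 0.10 and 0.09. The 6 markers of the rule had 0.04 and -0.06.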
